A study of Mus musculus with 18 samples.

Results

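Mouse embryonic stem cells of the uninduced deltaCnA line were compared with their parental CGR8 cells at day 0 on 4 of the 18 arrays of the series, 2 arrays a group. The arrays were chosen by their titles, and a probe entered the comparison when its detection p-value was under 0.05 on both arrays of at least 1 of the 2 groups. This left 19297 of 46632 probes, which gave 10052 named genes, each read from its brightest probe. CGR8 is an embryonic stem cell line of strain 129P2/Ola, and both groups carry that strain and line name. The parental group was sampled at 0 days of withdrawal of leukaemia inhibitory factor (LIF), without cyclosporin A (CsA), an inhibitor of the phosphatase calcineurin. The deltaCnA line, ideltaCnAES, holds a transgene for deltaCnA, an altered calcineurin A subunit, and was sampled at 0 days of tetracycline (Tc) withdrawal, the step that induces the transgene. Its LIF supply, the number of clones behind it and the promoter that drives the transgene are not stated in the material used. The remaining 14 arrays, 2 a group, were CGR8 cells at days 1 and 3 without LIF, CGR8 cells with CsA at days 0, 1 and 3, and the deltaCnA line at days 1 and 4 without Tc.

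Embryonic stem cells are held in a self-renewing state by a core set of transcription factors, to which LIF adds through STAT3. A transgenic line is grown out from selected cells, so its baseline can differ from that of the parent before the transgene is induced. Calcineurin is a calcium-dependent phosphatase that releases the NFAT transcription factors into the nucleus, and CsA blocks it when bound to cyclophilin A. Sublines of embryonic stem cells are known to differ in imprinted, sex-linked and germline genes, whose levels depend on DNA methylation and chromatin. The labels name only the line and the treatment, so the comparison shows the baseline from which the induction course starts.

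All 4 arrays read as embryonic stem cells. Pou5f1, the POU factor of the core network, read 12.87 and 12.80 on the CGR8 arrays and 13.15 on both arrays of the line, all as log2 normalized intensity, the scale of every level given here. Sox2, its partner, read 10.35 and 10.53 against 10.80 and 10.68, and the nuclear receptor gene Esrrb read 14.06 and 14.02 against 14.40 and 14.20. None of these 3 genes was called. Among other stem cell markers, Nanog (-0.44), Zfp42 (-0.62) and Klf4 (-0.62, all as log2 differences) were called lower in the line. Utf1 and Tdgf1 were not called. The calls of Nanog, Zfp42 and Klf4 ended when arrays were scaled to equal medians, and all 3 genes were detected on all 4 arrays. Markers of other cells were detected in part. Of 15 fibroblast markers, 5 were detected on both CGR8 arrays and 6 on both arrays of the line, while Col1a1, Col1a2, Col3a1 and Dcn were among those undetected on all 4. Thy1 (-1.12 ± 0.21) and Mmp2 (-0.48 ± 0.14) were lower in the line, as log2 differences with standard errors. They were 2 of 6 fibroblast markers tested (33.3%, beside 11.9% of all genes). The other 4 were not called, and the median log2 difference of the 6 was 0.15. Of 16 blood and endothelium markers, 7 were detected on both arrays of each group, and Ptprc, Cdh5 and Gata1 were among those undetected on all 4. Tal1 (-0.92 ± 0.17) and Etv2 (-0.69 ± 0.19), transcription factors of blood and vessel progenitors, were lower. They were 2 of 7 such markers tested (28.6%), with 5 not called and a median of -0.22. Of 19 primitive endoderm markers, 11 were detected on both CGR8 arrays and 9 on both of the line, with Gata6, Sox17, Afp and Ttr undetected on all 4. The summed linear intensity of the fibroblast markers was 2610 and 2670 on the CGR8 arrays and 2514 to 2555 on those of the line. That of the blood and endothelium markers was 1535 to 1584 and 1255 to 1462.

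The arrays were alike in the share of probes detected, but not in mean or lowest intensity. Between 40.4% and 44.1% of probes were detected on each of the 18 arrays, and the Pearson correlation of replicate arrays lay between 0.992 and 0.995 over genes, a description in which genes are not replicates. Before normalization the mean intensity of an array ran from 286.9 to 484.0 over the series, and at day 0 it was 404.3 and 346.8 for CGR8 and 480.5 and 343.9 for the line. The lowest intensities lay between -57.95 and -47.00 on the 6 deltaCnA arrays and between -29.37 and -23.71 on the other 12. Each is the value of 1 probe. Zfp472, described below, read 4.20 to 4.21 on the 6 deltaCnA arrays, at or near the lowest normalized value. These minima may therefore be that probe's and are no measure of background. The share of probes below 0 was 33.2% to 35.2% on the deltaCnA arrays and 31.1% to 33.8% on the others. Differences between arrays, the line and the induction course cannot be told apart. Whether the 2 arrays of a group came from separate cultures is not in the labels. The p-values therefore cover only the spread between arrays, which may be technical, and the number of arrays limits the precision.

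At day 0 the uninduced line differed from its parent in 1955 genes, 19.4% of those tested, at an adjusted p under 0.05 in limma. Of these, 756 (7.52%) were higher in the line and 1199 (11.9%) were lower. Differences of at least 2-fold were found in 76 called genes higher (0.756%) and 227 lower (2.26%). The median log2 difference over all tested genes was -0.01. The zinc finger gene Zfp472 was undetected in the line, and Ezh2, the methyltransferase subunit of a Polycomb repressive complex, was 11.6-fold higher. Detection was lacking on 1 or both arrays of the dimmer group for 51 of the higher genes and 185 of the lower ones. Leaving out replicate 2 of the line gave 847 called genes, leaving out replicate 2 of CGR8 gave 1022, and scaling arrays to equal medians gave 838.

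**Figure D1:**
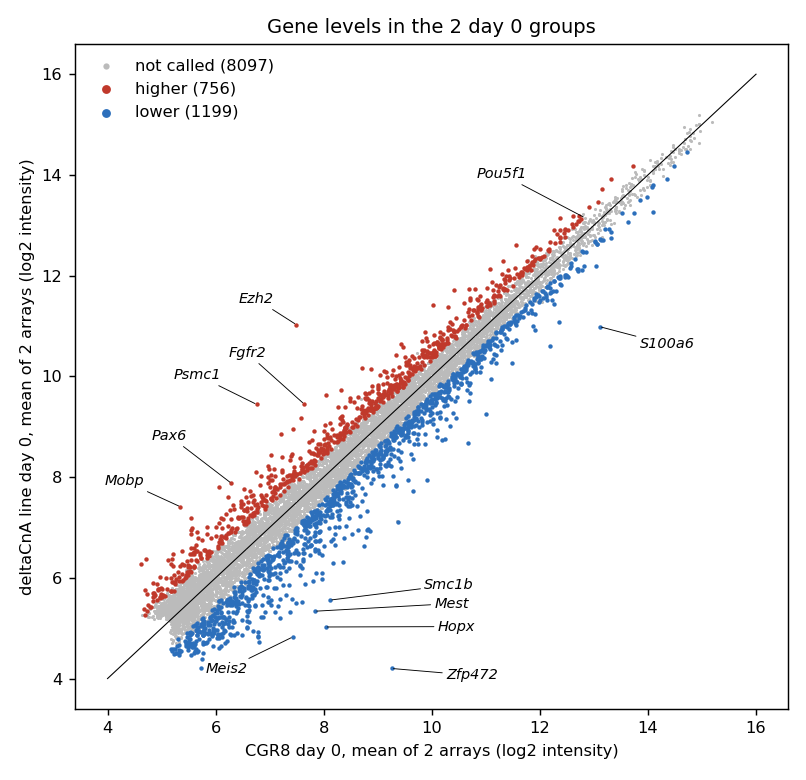
Mean log2 normalized intensity of 10052 genes in CGR8 cells at day 0 (x axis, 2 arrays) and in the deltaCnA line at day 0 (y axis, 2 arrays), with the line of equality. Called genes are coloured (756 higher in red, 1199 lower in blue), Ezh2 stands apart above the diagonal and Zfp472 below it, and Pou5f1 lies close to it.

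Zfp472, a member of the large family of zinc finger genes, gave the widest difference. It read 9.14 and 9.38 on the CGR8 arrays and 4.20 on both arrays of the line, which is the lowest value the normalization gives. Over the whole series its 12 CGR8 arrays lay between 8.92 and 9.38 and its 6 deltaCnA arrays between 4.20 and 4.21, where it was detected on 0 of 6. The line was at least 17.1-fold lower (log2 difference -5.06 ± 0.14, SE; adjusted p = 1.05e-17, limma). A fold is given as "at least" wherever the dimmer group lacked detection on 1 or both arrays. Meis2 and Dazl, also undetected on all 6 deltaCnA arrays, read higher there, at 4.73 to 5.14 and 4.86 to 5.12. Whether the Zfp472 probe itself failed on the deltaCnA arrays was not tested, and no other probe of the gene was available.

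Ezh2 read 7.29 and 7.69 on the CGR8 arrays and 10.99 and 11.06 on those of the line, with no overlap over the series (6.13 to 7.69 on 12 CGR8 arrays, 10.75 to 11.06 on 6 deltaCnA arrays). The log2 difference was 3.54 ± 0.18 (adjusted p = 1.53e-12). A second Ezh2 probe was undetected on all 4 arrays, so the difference rests on 1 probe. Eed, a partner of Ezh2 in that complex, read 10.48 and 10.66 against 10.61 and 10.56 and was not called (0.02 ± 0.12, adjusted p = 0.946). Bmi1, of the other Polycomb complex, read 7.66 and 7.96 against 7.12 and 7.27 and was lower in the line (-0.62 ± 0.17, adjusted p = 0.0122). Its call ended without replicate 2 of CGR8 (adjusted p = 0.151), without replicate 1 of the line (0.0884) and with median scaling (0.108).

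Meis2, a homeobox factor, and Smc1b, the cohesin subunit of meiotic chromosomes, were next among the genes that stayed low. Meis2 read 7.48 and 7.38 on the CGR8 arrays and 4.81 and 4.85 on those of the line, undetected on both, and was at least 4.8-fold lower (-2.60 ± 0.19, adjusted p = 1.62e-09). Of its other probes, 2 more were kept, with log2 differences of -2.40 and -1.44, and 1 was undetected on all 4 arrays. Smc1b read 8.24 and 7.999 against 5.53 and 5.58, a 5.9-fold difference (-2.56 ± 0.21, adjusted p = 1.03e-08). No deltaCnA array of either gene reached the lowest CGR8 array.

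The promoters of these 4 genes are shown because, by day 0 log2 difference, the genes are the 3 largest falls and the largest rise among those apart from CGR8 on all 18 arrays, and CpG density is the property of a promoter on which methylation acts. Each is 300 bases, from 250 before the annotated start to 50 after it, 5′ to 3′ on the gene's strand, from RefSeq on GRCm38.p6, with each CG in capitals. Zfp472 lies at chr17:32965581-32965880 (+ strand, 10 CG), Meis2 at chr2:116064570-116064869 (- strand, 13 CG), Smc1b at chr15:85131908-85132207 (- strand, 29 CG) and Ezh2 at chr6:47594981-47595280 (- strand, 31 CG).
Zfp472: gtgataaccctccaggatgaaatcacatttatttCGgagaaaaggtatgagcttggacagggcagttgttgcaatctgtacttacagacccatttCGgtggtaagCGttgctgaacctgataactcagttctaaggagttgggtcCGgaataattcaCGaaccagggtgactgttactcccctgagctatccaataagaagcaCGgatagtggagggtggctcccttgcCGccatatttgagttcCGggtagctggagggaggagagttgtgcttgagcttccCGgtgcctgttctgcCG
Meis2: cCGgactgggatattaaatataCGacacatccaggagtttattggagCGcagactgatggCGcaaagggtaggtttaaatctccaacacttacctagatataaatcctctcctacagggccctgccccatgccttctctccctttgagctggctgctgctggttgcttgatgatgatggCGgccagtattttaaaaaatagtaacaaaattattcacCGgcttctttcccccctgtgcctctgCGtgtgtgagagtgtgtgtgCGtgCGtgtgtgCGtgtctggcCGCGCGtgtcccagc
Smc1b: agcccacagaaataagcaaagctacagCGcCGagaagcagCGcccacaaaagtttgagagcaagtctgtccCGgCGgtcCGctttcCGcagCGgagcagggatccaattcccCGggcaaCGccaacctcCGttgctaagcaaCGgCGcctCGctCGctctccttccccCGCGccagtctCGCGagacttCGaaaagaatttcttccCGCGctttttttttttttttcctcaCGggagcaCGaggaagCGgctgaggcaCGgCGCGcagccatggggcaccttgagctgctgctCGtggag
Ezh2: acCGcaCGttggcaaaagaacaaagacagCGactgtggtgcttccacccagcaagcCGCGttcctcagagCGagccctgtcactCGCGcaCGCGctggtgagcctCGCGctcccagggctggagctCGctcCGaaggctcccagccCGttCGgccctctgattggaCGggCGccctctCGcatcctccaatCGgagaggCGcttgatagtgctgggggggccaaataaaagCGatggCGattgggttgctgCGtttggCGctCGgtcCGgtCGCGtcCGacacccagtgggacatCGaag

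The promoter table held a sequence for 8128 of the 10052 tested genes. The median number of CG was taken over promoters, so a gene with several listed starts counted more than once. It was 20 for all tested genes (quartiles 11 and 28), 20 for the genes higher in the line and 17 for those lower. It was 13 (quartiles 6 and 24) for the genes set below CGR8 on every array that are described next. Of those last genes 65 of 74 had a sequence. The NFAT core motif GGAAAA, searched on both strands, occurred in 20.5% of all promoters of this length, 19.8% of those of higher genes and 20.6% of those of lower genes. It was in 22.7% of the 88 promoters of the genes set above CGR8 on every array and in 33.3% of the 105 promoters of those set below. A gene can have several listed starts, and 27 of the 65 genes below with a sequence (41.5%) had it in at least 1, against 23.9% of all genes. Shares per gene grow with the number of starts, and the genes below had more starts each (105 promoters for 65 genes) than all genes (10369 for 8128). No test was made of these shares. A match is a description of the letters and not a bound site. Smc1b was the only one of the 4 printed promoters that held it.

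All 10052 tested genes, called at day 0 or not, were then placed over the whole series. On all 6 deltaCnA arrays, 122 genes (1.21%) lay above every one of the 12 CGR8 arrays and 205 (2.04%) lay below. With median scaling these counts became 203 and 76, so the genes apart under both scalings are given here, 85 above (0.846%) and 74 below (0.736%). Of the 85, 55 were called higher at day 0, and of the 74, 72 were called lower, beside 7.52% and 11.9% of all genes. The 4 day 0 arrays enter both the selection and the calls, so this overlap was largely fixed in advance. The 55 and 72 genes were 7.28% of those called higher and 6.01% of those called lower. Besides Ezh2, the 85 include Mobp, named for a myelin protein, which was at least 3.75-fold higher and detected on 1 of 2 CGR8 arrays (4.82 and 5.87 against 7.15 and 7.67; 2.07 ± 0.28, adjusted p = 1.73e-05). They also include the X-linked homeobox genes Rhox9 (7.52 and 7.35 against 8.69 and 9.21; 1.52 ± 0.21, adjusted p = 2.5e-05) and Rhox6 (5.27 and 5.12 against 6.02 and 6.73; at least 2.24-fold, detected on 1 of 2 CGR8 arrays). The Rhox6 call ended without replicate 2 of the line (adjusted p = 0.0836), and Rhox genes have near-identical copies that a probe may not tell apart.

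Among the 74 genes below, there were imprinted, sex-linked and germline genes. Mest, an imprinted gene expressed from the paternal copy, read 7.83 and 7.84 on the CGR8 arrays and 5.57 and 5.10 on those of the line, detected on 1 of 2, and was at least 5.47-fold lower (-2.50 ± 0.18, adjusted p = 1.62e-09). Of 14 imprinted genes tested, 6 were higher (42.9%, beside 7.52% of all genes), Mest was the 1 called lower and 7 were not called, with a median of 0.35. Ndn, another paternally expressed gene, was below its parental level without being called (-0.49 ± 0.20, adjusted p = 0.0833). Peg3, a paternally expressed zinc finger gene, was higher at 9.65 and 9.62 against 9.07 and 8.999 (0.60 ± 0.12, adjusted p = 0.00117), although its 2 other kept probes were not called (0.21 and 0.23). So was Gnas, a G protein subunit gene (0.69 ± 0.15, adjusted p = 0.00251). The growth inhibitor Cdkn1c (0.55 ± 0.13) was called too, with an adjusted p of 0.0633 without replicate 1 of CGR8 and 0.0743 without replicate 2 of the line. The number of imprinted genes called higher was 3 without replicate 1 of CGR8, 4 without its replicate 2, 3 without replicate 2 of the line and 2 with median scaling.

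X-linked genes made up 10 of the 74 genes below (13.5%), where 3.17% of tested genes lie on the X chromosome, and 4 of the 85 above (4.71%). In the day 0 comparison 33 of 319 tested X-linked genes were higher (10.3%, beside 7.52% of all genes). Another 46 were lower (14.4%, beside 11.9%). Fmr1nb, a gene next to Fmr1 known from testis, read 10.79 and 10.53 against 8.63 and 8.71 (-1.99 ± 0.13, adjusted p = 3.53e-10). Efhc2, an EF-hand gene, read 8.67 and 9.03 against 6.95 and 6.92 (-1.92 ± 0.15, adjusted p = 1.03e-08). The ferritin-like gene Fthl17f (-1.87 ± 0.18), Dmrtc1c1 (-1.86 ± 0.19), the deubiquitinase gene Usp26 (-1.55 ± 0.20), the mRNA export gene Nxt2 (-1.27 ± 0.12) and the germ cell homeobox gene Rhox13 (-0.93 ± 0.19) were lower in the same way. Each of these 7 genes was below its lowest CGR8 array on all 6 deltaCnA arrays. The remaining X-linked genes among the 10 were Fgf13, Nxf7 and Zfp185.

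Sex chromosome genes with other roles did not move together. Eif2s3y, the Y-linked translation initiation subunit, read 7.41 and 7.36 against 5.39 and 5.24 and was 4.19-fold lower (-2.07 ± 0.18, adjusted p = 2.82e-08). It was detected on 12 of 12 CGR8 arrays and 3 of 6 deltaCnA arrays. Uty, a Y-linked demethylase gene, read 6.46 and 5.98 against 6.26 and 6.53 and was not called (0.18 ± 0.21, adjusted p = 0.604), and neither was Zfy2 (0.23 ± 0.23, adjusted p = 0.522). Xist, the RNA of X inactivation, read 5.12 and 5.19 against 5.24 and 5.26 and was not called (adjusted p = 0.785). Rlim, the ubiquitin ligase that activates Xist, was higher (0.76 ± 0.15, adjusted p = 0.000935).

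**Figure D2:**
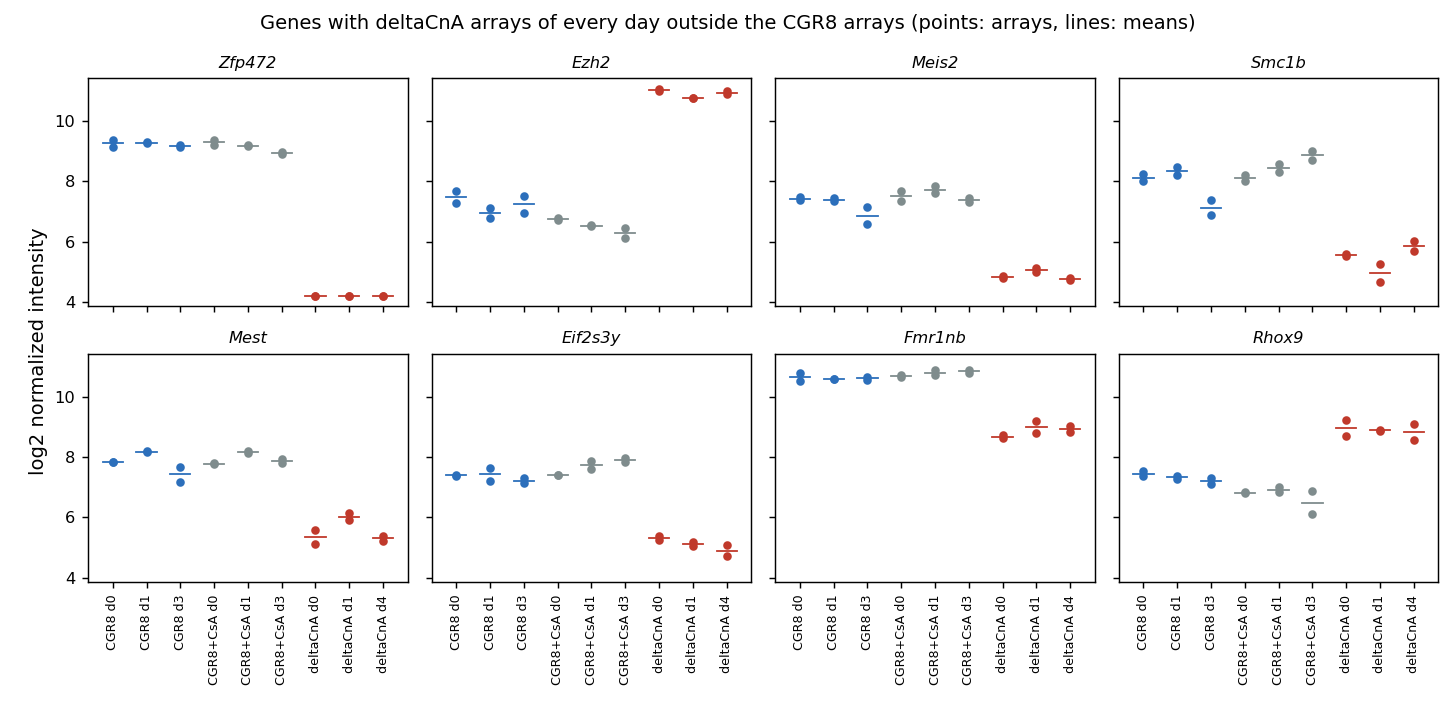
Log2 normalized intensity (y axis) of 8 genes on all 18 arrays, grouped by line and day (x axis); points are arrays and short lines are means of 2 arrays, with CGR8 in blue, CGR8 with CsA in grey and the deltaCnA line in red. In every panel the 6 deltaCnA arrays lie outside the range of the 12 CGR8 arrays, above it for Ezh2 and Rhox9 and below it for the others.

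Oocyte and germline genes included many that were lower in the line at day 0. Of 19 tested, 9 were lower (47.4%, beside 11.9% of all genes), 2 were higher and 8 were not called, with a median of -0.41. Khdc3, of the subcortical maternal complex, read 11.13 and 10.86 against 9.49 and 9.003 (-1.75 ± 0.16, adjusted p = 5.35e-08). Aurkc, the aurora kinase of meiosis, read 8.17 and 8.87 against 6.90 and 6.84 (-1.65 ± 0.25, adjusted p = 5.35e-05). Tex19.1, a gene known to restrain retrotransposons in the germline, read 11.78 and 12.06 against 10.898 and 10.94 (-0.995 ± 0.15, adjusted p = 5.75e-05). Nlrp14 (-0.96 ± 0.18) and Tex19.2 (-0.74 ± 0.18) were lower as well.

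Dazl, an RNA-binding protein gene of germ cells, was undetected on all 6 deltaCnA arrays and detected on all 12 CGR8 arrays, and at day 0 it was at least 1.53-fold lower (adjusted p = 0.00924). Its call ended without replicate 2 of CGR8 (0.118) and without replicate 2 of the line (0.0786). Outside the list, the PIWI gene Piwil1 (at least 1.95-fold, adjusted p = 0.000159) and its pathway partner Tdrkh (-0.67 ± 0.17, adjusted p = 0.00732) were below CGR8 on every array. The oocyte gene Patl2, also outside the list, was higher at day 0 (log2 difference 1.75). The Tdrkh call ended without replicate 2 of the line (0.07) and with median scaling (0.079). The listed germline genes higher in the line were Rhox6 and Ddx4, and the Ddx4 call (0.55 ± 0.19) ended without any single array of the 4. The number of lower members was 6 without replicate 2 of CGR8, 5 without replicate 2 of the line and 6 with median scaling.

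Other wide differences at day 0 were in genes whose levels also moved over the courses. Hopx, a homeodomain gene without DNA contact, read 7.82 and 8.25 on the CGR8 arrays and 5.21 and 4.84 on those of the line, detected on 1 of 2, and was at least 7.1-fold lower (-3.01 ± 0.23, adjusted p = 5.63e-09). At day 1 of induction its mean in the line was 6.996, and at day 4 it was 4.70. S100a6, a calcium-binding protein gene, read 13.23 and 12.98 against 10.92 and 11.05 (-2.12 ± 0.17, adjusted p = 1.07e-08). Its mean in the line was 12.77 at day 1 and 11.03 at day 4, so the day 1 arrays were near the parental day 0 level and the day 4 arrays were not. Ccno, a cyclin family gene, read 7.80 and 8.15 against 6.34 and 5.63 (-1.996 ± 0.22, adjusted p = 1.53e-06), with line means of 7.98 at day 1 and 5.48 at day 4.

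Abca14, a lipid transporter gene, read 7.84 and 7.48 against 6.24 and 5.54 (-1.77 ± 0.22, adjusted p = 6.31e-06). Its mean in the line was 8.26 at day 1 and 8.22 at day 4, above the parental day 0 mean of 7.66. Aurkc, by contrast, read 7.35 at day 1 and 6.79 at day 4, both below its parental day 0 mean of 8.52. Apoe, the apolipoprotein gene, was higher in the line at 11.65 and 11.81 against 10.83 and 10.54 (1.04 ± 0.18, adjusted p = 0.000222). Its mean was 11.03 at day 1 and 12.01 at day 4 of induction.

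Tuba3a, an alpha tubulin gene of the testis, was lower at 9.30 and 9.44 against 7.14 and 7.07 (-2.26 ± 0.15, adjusted p = 3.53e-10). Its 3 other kept probes differed by -1.87, -1.84 and -1.19, although near-identical tubulin genes may share these probes. Robo4, a receptor of the roundabout family, was 4.35-fold lower (8.42 and 9.08 against 6.75 and 6.51; -2.12 ± 0.24). Its 2 other kept probes disagreed with that size, at 0.21 (not called) and -0.57. The remaining genes among the 15 largest falls were Rcsd1 (at least 4.01-fold, detected on 1 of 2 line arrays), Tmc5 (at least 3.12-fold, detected on 0 of 2), Tmem40 (4.15-fold) and the PRAME family gene Pramel14 (3.96-fold).

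Among the higher genes, Fgfr2, a receptor for fibroblast growth factors, read 7.71 and 7.56 against 9.29 and 9.62 (1.82 ± 0.17, adjusted p = 6.76e-08). Of its other probes, 1 differed by 0.79 and was undetected on both CGR8 arrays, 1 was not called (0.20) and 1 was undetected on all 4. Pax6, the neural and eye transcription factor, read 6.22 and 6.36 against 7.70 and 8.06 (1.59 ± 0.22, adjusted p = 1.78e-05), with no other detected probe. Dusp4, an ERK phosphatase, read 6.998 and 7.44 against 8.49 and 9.22 (1.64 ± 0.23, adjusted p = 2.94e-05). The oocyte gene Patl2 (3.36-fold), the calcium-binding gene S100a1 (3.13-fold), the phospholipid transfer protein gene Pltp (3.03-fold), Uap1l1 (2.753-fold) and the carnitine acyltransferase gene Cpt1b (2.7-fold) followed. Clic6 (at least 2.2-fold) and Frem2 (at least 2.34-fold) were undetected on both CGR8 arrays.

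Psmc1, a proteasome ATPase gene, ranked second among the rises but its probe was uneven within the parental group. It read 7.92 and 5.59 on the CGR8 arrays and 9.48 and 9.41 on those of the line (2.69 ± 0.88, adjusted p = 0.0341). The call ended without replicate 2 of CGR8 (log2 difference 1.52, adjusted p = 0.372) and without replicate 1 or 2 of the line (adjusted p = 0.124 and 0.149).

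**Figure D3:**
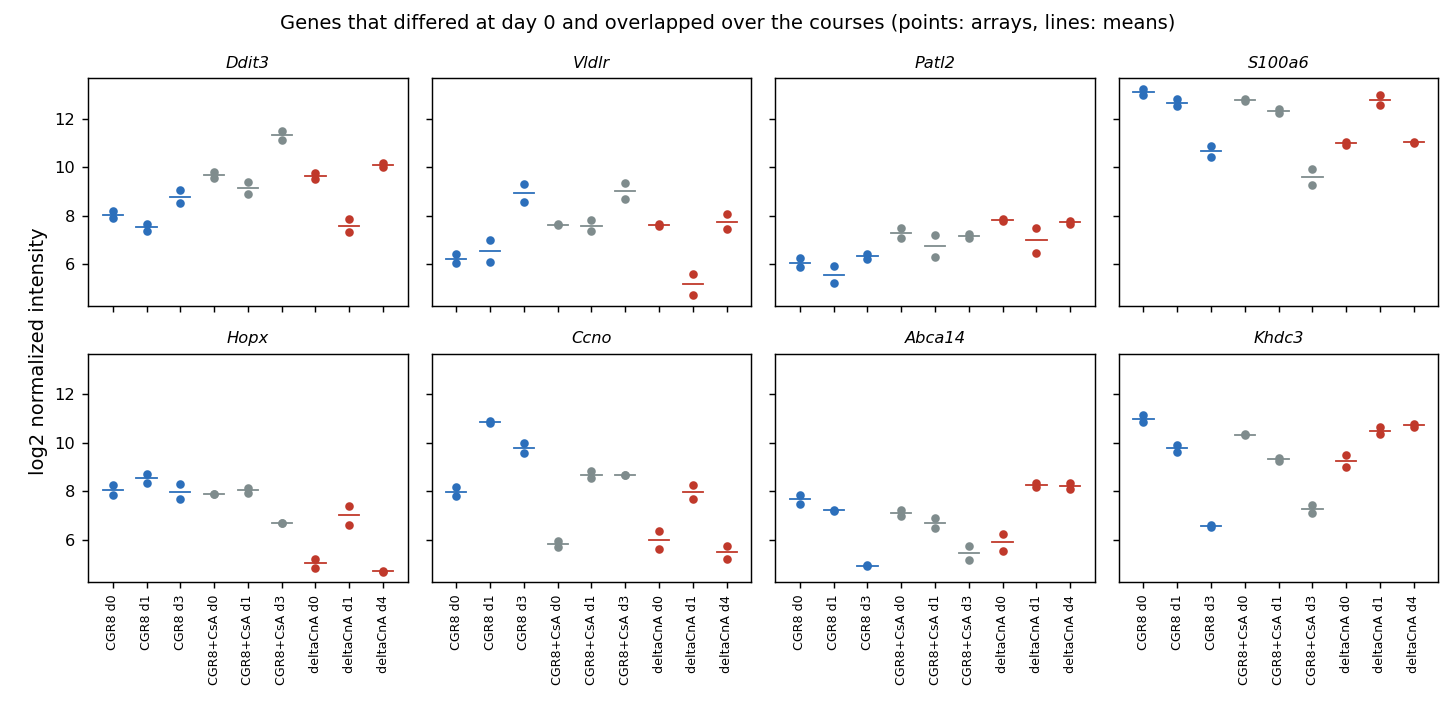
Log2 normalized intensity (y axis) of 8 genes called at day 0 on all 18 arrays, grouped by line and day (x axis); points are arrays and short lines are means of 2 arrays, with CGR8 in blue, CGR8 with CsA in grey and the deltaCnA line in red. At day 0 the 2 arrays of the line differ from the 2 of CGR8 in each panel, while over all days the lines overlap, and S100a6 reads 12.77 in the line at day 1.

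In the pluripotency network the called shares were near those of all genes (7.52% higher and 11.9% lower). Of 14 core genes tested, 0 were higher, 1 was lower (7.14%) and 13 were not called, with log2 differences from -0.44 to 0.32. Nanog read 13.03 and 13.10 against 12.75 and 12.50 (-0.44 ± 0.11, adjusted p = 0.00606), a call that ended without replicate 2 of CGR8 (0.0543), without replicate 2 of the line (0.142), with median scaling (0.216) and with the mean of its probes (0.223). The 2 other kept Nanog probes were not called (0.04 and -0.18). Utf1 (-0.40 ± 0.15, adjusted p = 0.0743) and Tdgf1 (-0.16 ± 0.28, adjusted p = 0.732) were not called. Of 17 naive genes, 3 were lower (17.6%) and 14 were not called, with a median of -0.03, and 0 were lower with median scaling. Zfp42, known as Rex1, read 10.19 and 10.42 against 9.70 and 9.67 (-0.62 ± 0.12, adjusted p = 0.000878; 0.0914 with median scaling). Klf4 (-0.62 ± 0.17, adjusted p = 0.0128) and Gbx2 (-0.51 ± 0.17, adjusted p = 0.0338) were the others. The Klf4 call ended without replicate 1 of CGR8 (0.0668) or of the line (0.126), and that of Gbx2 without replicate 2 of CGR8 (0.214) or replicate 1 or 2 of the line (0.207 and 0.0723).

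Genes that LIF acts on through STAT3 were mixed. Of 17 tested, 1 was higher (5.88%, beside 7.52% of all genes), 3 were lower (17.6%, beside 11.9%) and 13 were not called. Socs2, a feedback inhibitor of cytokine receptors, read 11.001 and 11.15 against 11.99 and 12.27 (1.05 ± 0.15, adjusted p = 4.5e-05). Socs3, the nearest feedback target of STAT3, read 11.50 and 11.28 against 11.35 and 11.33 and was not called (-0.05 ± 0.20, adjusted p = 0.884). Stat3 itself (0.32 ± 0.12, adjusted p = 0.0672) and Myc (-0.73 ± 0.26, adjusted p = 0.0538) were not called. The lower members were Fos (-0.86 ± 0.24), Klf4 and Gbx2. The Fos call ended without replicate 1 of CGR8 (0.182) and without replicate 1 or 2 of the line (0.0824 and 0.062).

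Primed epiblast genes, which mark the state that follows naive pluripotency, held 3 lower (33.3%, beside 11.9% of all genes) and 0 higher of 9 tested, with a median of -0.39. Otx2, a homeobox factor of the epiblast, read 10.28 and 9.93 against 8.56 and 9.04 (-1.30 ± 0.20, adjusted p = 6.13e-05), and was below CGR8 on all 6 deltaCnA arrays. Fgf15 was at least 2.63-fold lower (6.44 and 6.78 against 5.24 and 5.02, detected on 1 of 2 line arrays). Lef1, a transcription factor of Wnt signalling, was at least 1.95-fold lower (6.18 and 6.08 against 4.93 and 4.70, detected on 0 of 2).

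Of 9 mesendoderm genes, 3 were lower (33.3%, beside 11.9% of all genes) and 0 higher. Eomes, a T-box factor, was at least 1.63-fold lower and detected on 1 of 2 line arrays, and Evx1, a homeobox factor, was at least 1.52-fold lower and detected on 0 of 2. Nodal, their upstream ligand, was lower too (-0.40 ± 0.11, adjusted p = 0.0161). The Nodal call ended without replicate 2 of CGR8 (0.107), without replicate 2 of the line (0.125), with median scaling (0.273) and with the mean of its probes (0.0626), and its other kept probe was not called (-0.16).

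Genes of extraembryonic cells moved in both directions. Among primitive endoderm genes, 18.2% were higher (beside 7.52% of all genes) and 36.4% lower (beside 11.9%). Of 11 primitive endoderm genes, Apoe and the fibronectin gene Fn1 (0.87 ± 0.16, adjusted p = 0.000557) were higher, the latter with other probes at 1.25, 0.96 and, not called, 0.29. The basement membrane collagens Col4a1 (8.62 and 8.98 against 7.46 and 7.18; -1.48 ± 0.21, adjusted p = 2.94e-05) and Col4a2 (-1.02 ± 0.17, adjusted p = 0.000203), Dab2 and Sox7 were lower. The calls of Dab2 and Sox7 each ended without replicate 1 of CGR8 (adjusted p = 0.2 and 0.0676) and without replicate 2 of the line (0.13 and 0.27). Dab2 also lost its call without replicate 1 of the line (0.105), and Sox7 without replicate 2 of CGR8 (0.132). The summed linear intensity of the 19 listed markers was 6348 and 6481 on the CGR8 arrays and 7588 and 8349 on those of the line, and Gata6, Sox17 and Foxa2 were undetected on all 4. That sum is weighted to bright genes such as Apoe, and the median log2 difference of the 11 tested genes was 0.07.

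Of 10 trophectoderm genes, 3 were higher (30%, beside 7.52% of all genes), namely Rhox9, Rhox6 and Tfap2c. Krt8 and Eomes were the 2 lower (20%, beside 11.9%). Tfap2c, a transcription factor of trophoblast and germ cells, read 10.49 and 10.33 against 11.68 and 11.73 (1.30 ± 0.22, adjusted p = 0.000196). Krt8, a keratin of simple epithelia, read 8.08 and 8.33 against 7.23 and 6.80 (-1.19 ± 0.22, adjusted p = 0.000584). The tight junction gene Cldn3 was lower as well (7.0003 and 6.92 against 5.81 and 6.11; -1.003 ± 0.21, adjusted p = 0.00155). The summed intensity of 15 trophectoderm markers was 2421 and 2483 on the CGR8 arrays and 4417 and 4734 on those of the line, and Elf5, Hand1 and Plac1 were undetected on all 4. This linear sum is weighted to the bright gene Tfap2c, so its rise does not describe the markers as a set. The median log2 difference of the 10 tested genes was -0.27. In RNA from whole cultures, fewer cells of a type and less RNA per cell cannot be told apart, and the part of other cell types in these differences was not tested.

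Among calcineurin and its partners, 1 gene was called before induction. Of 13 tested components, 0 were higher, 1 was lower (7.69%, beside 11.9% of all genes) and 12 were not called, with a median of -0.02. Ppp3ca, the calcineurin A alpha subunit gene from which a deltaCnA could also be read, gave 8.95 and 8.64 against 8.62 and 8.24 (-0.36 ± 0.16, adjusted p = 0.128). A second kept Ppp3ca probe differed by -0.06 and was not called. Ppp3cb, the beta subunit gene, read 11.13 and 11.37 against 11.16 and 11.39 (0.03 ± 0.13, adjusted p = 0.912). Rcan1, a calcineurin inhibitor that NFAT induces, read 9.76 and 9.60 against 9.91 and 10.13 (0.34 ± 0.13, adjusted p = 0.0777). The sources used here do not say which part of the transgene, if any, these probes match, so they do not check its level.

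The lower component was Ppia, cyclophilin A, at 14.74 and 14.69 against 14.52 and 14.41 (-0.26 ± 0.09, adjusted p = 0.0488). The Ppia call ended without any single array of the 4 (adjusted p from 0.064 to 0.294) and with median scaling (0.418).

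Among targets of p53, which answer DNA damage and other stress, every called member was higher. Of 14 tested, 5 were higher (35.7%, beside 7.52% of all genes), 0 lower and 9 not called, with a median of 0.33. Mdm2, the ubiquitin ligase that degrades p53, read 11.60 and 11.48 against 12.06 and 12.23 (0.61 ± 0.12, adjusted p = 0.0011). Trp53inp1 (0.73 ± 0.16), Zmat3 (0.63 ± 0.15), Ccng1 (0.61 ± 0.14) and Gadd45a (0.42) were the others. The 3 other kept Ccng1 probes, detected on all 4 arrays, were not called (0.22, -0.08 and -0.22). Only 1 member was called without replicate 2 of CGR8 and 2 without replicate 2 of the line. Without replicate 2 of CGR8 the adjusted p was 0.058 for Trp53inp1, 0.109 for Zmat3 and 0.114 for Ccng1, and without replicate 2 of the line it was 0.0736 for Trp53inp1 and 0.0549 for Zmat3.

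Of 21 genes of the integrated stress response, 3 were higher (14.3%, beside 7.52% of all genes), 0 lower and 18 not called. Ddit3, the CHOP transcription factor, read 8.18 and 7.91 against 9.51 and 9.74 (1.58 ± 0.20, adjusted p = 6.97e-06). Vldlr, a lipoprotein receptor, read 6.40 and 6.04 against 7.55 and 7.66 (1.39 ± 0.30, adjusted p = 0.00213), and Cebpb, a partner of CHOP, was higher too (0.96 ± 0.19, adjusted p = 0.000866). At day 1 of induction the line means of these 3 genes were 7.58, 5.17 and 7.69, each below its parental day 0 mean of 8.04, 6.22 or 8.12, with Vldlr detected on 1 of the 2 day 1 arrays. Atf4 (0.10), Asns (-0.11) and Trib3 (0.44) were among the members not called. In CGR8 cells with CsA at day 0 the means of Ddit3, Vldlr and Cebpb were 9.67, 7.62 and 9.05, where those of the line were 9.63, 7.61 and 9.08. These values were set side by side after they were seen, for these 3 genes alone, and the CGR8 arrays behind both differences are the same.

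Of 18 genes of lipoproteins and lipid transport, 6 were higher (33.3%, beside 7.52% of all genes), 3 lower (16.7%, beside 11.9%) and 9 not called. Pltp read 7.72 and 7.44 against 9.09 and 9.27 (1.60 ± 0.24, adjusted p = 7.04e-05), and Vldlr and Apoe were higher with it. The cholesterol exporter gene Abcg1 (0.77 ± 0.25), Abca7 (0.58 ± 0.18) and the fatty acid binding gene Fabp3 (0.57 ± 0.14) were also called. The calls of Abcg1 and Abca7 ended without any single array of the 4 (adjusted p from 0.083 to 0.163 and from 0.0635 to 0.16), and that of Fabp3 without replicate 2 of the line (0.0603). Lower were Abca14, Apom (-0.92 ± 0.18, adjusted p = 0.000974) and the lipoprotein lipase gene Lpl (9.87 and 9.95 against 9.20 and 9.002; -0.80 ± 0.13, adjusted p = 8.76e-05), which stayed below CGR8 on every array.

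Of 14 genes of hypoxia and glycolysis, 4 were lower (28.6%, beside 11.9% of all genes) and 0 higher, and 2 were lower with median scaling or without replicate 2 of the line. Ankrd37, a target of hypoxia-inducible factor, was at least 2.74-fold lower (6.51 and 6.87 against 5.27 and 4.64, detected on 1 of 2 line arrays; adjusted p = 4.2e-05). Tpi1, a glycolytic enzyme gene, read 13.26 and 13.38 against 12.78 and 12.69 (-0.58 ± 0.11, adjusted p = 0.000906), with adjusted p = 0.184 for the mean of its probes and 0.0585 with median scaling, and its other kept probe differed by 0.05. The oxygen sensor gene Egln3 (-0.84 ± 0.20) lost its call without replicate 2 of the line (0.178), and its other probe, detected on all 4 arrays, lay the other way (0.30, not called).

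Of 24 genes of mitochondrial ribosomes and translation, 7 were lower (29.2%, beside 11.9% of all genes) and 2 higher (8.33%), with a median of -0.16. The lower members numbered 2 without replicate 2 of CGR8, 3 without replicate 1 or 2 of the line and 2 with median scaling, and 0 were higher without replicate 2 of either group. Mrpl20 (10.05 and 10.13 against 9.24 and 9.30; -0.82 ± 0.16, adjusted p = 0.000653) and the chaperonin gene Hspd1 (-0.66 ± 0.10, adjusted p = 5.1e-05) led the lower members, but another Hspd1 probe, detected on all 4 arrays, differed by -0.09 and was not called. The remaining 5 lower members differed by -0.35 to -0.39. Nuclear genes of the respiratory chain held 1 call among 20, which ended with median scaling and without replicate 2 of either group.

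The cell cycle genes that were called were cyclins of the G1 phase. Among all tested genes, 11.9% were called lower. Of 17 cell cycle genes, 3 were lower (17.6%) and 0 higher, namely Ccnd2 (8.10 and 8.74 against 7.10 and 6.98; -1.38 ± 0.23, adjusted p = 0.000181), Ccnd3 (-0.57 ± 0.16) and Ccne1 (-0.56 ± 0.16). The calls of Ccnd3 and Ccne1 ended without replicate 2 of CGR8 (adjusted p = 0.0856 and 0.174) and with median scaling (0.144 and 0.161), that of Ccnd3 without replicate 1 of the line (0.122) and that of Ccne1 without its replicate 2 (0.195). The other kept Ccne1 probe was not called (-0.21). Genes of replication and mitosis on the list, such as Mcm2 (-0.15), Pcna (0.10), Plk1 (-0.16) and Cdk1 (-0.31), were not called. Aurka (-0.14) and Aurkb (-0.18), the mitotic relatives of Aurkc, were not called either.

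Of 13 interferon and antigen presentation genes, 3 were lower (23.1%, beside 11.9% of all genes) and 1 higher (7.69%, beside 7.52%). The higher call ended without replicate 1 or 2 of CGR8, without replicate 2 of the line and with median scaling. The immunoproteasome gene Psmb10 read 10.54 and 10.88 against 9.69 and 9.67 (-1.03 ± 0.15, adjusted p = 2.86e-05), and Ifitm3, an antiviral membrane protein gene, was lower as well (-0.62 ± 0.12, adjusted p = 0.000811). Mesenchymal genes were split, with Fn1 higher and S100a6, Tgfb1 (at least 2.37-fold, detected on 1 of 2 line arrays) and Vim (-0.70 ± 0.15) lower of 14. The Tgfb1 call ended without replicate 2 of the line (0.0961), and that of Vim without replicate 2 of CGR8 (0.0511) or of the line (0.0784). Cytosolic ribosome genes held 2 higher of 19 (10.5%), the endoplasmic reticulum chaperones 2 lower of 10, and cholesterol synthesis 1 lower of 14 (7.14%), Fdps, which has a second probe called the other way (0.66). Each of these 3 counts was 0 with median scaling, without replicate 2 of CGR8 and without replicate 2 of the line.

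**Figure D4:**
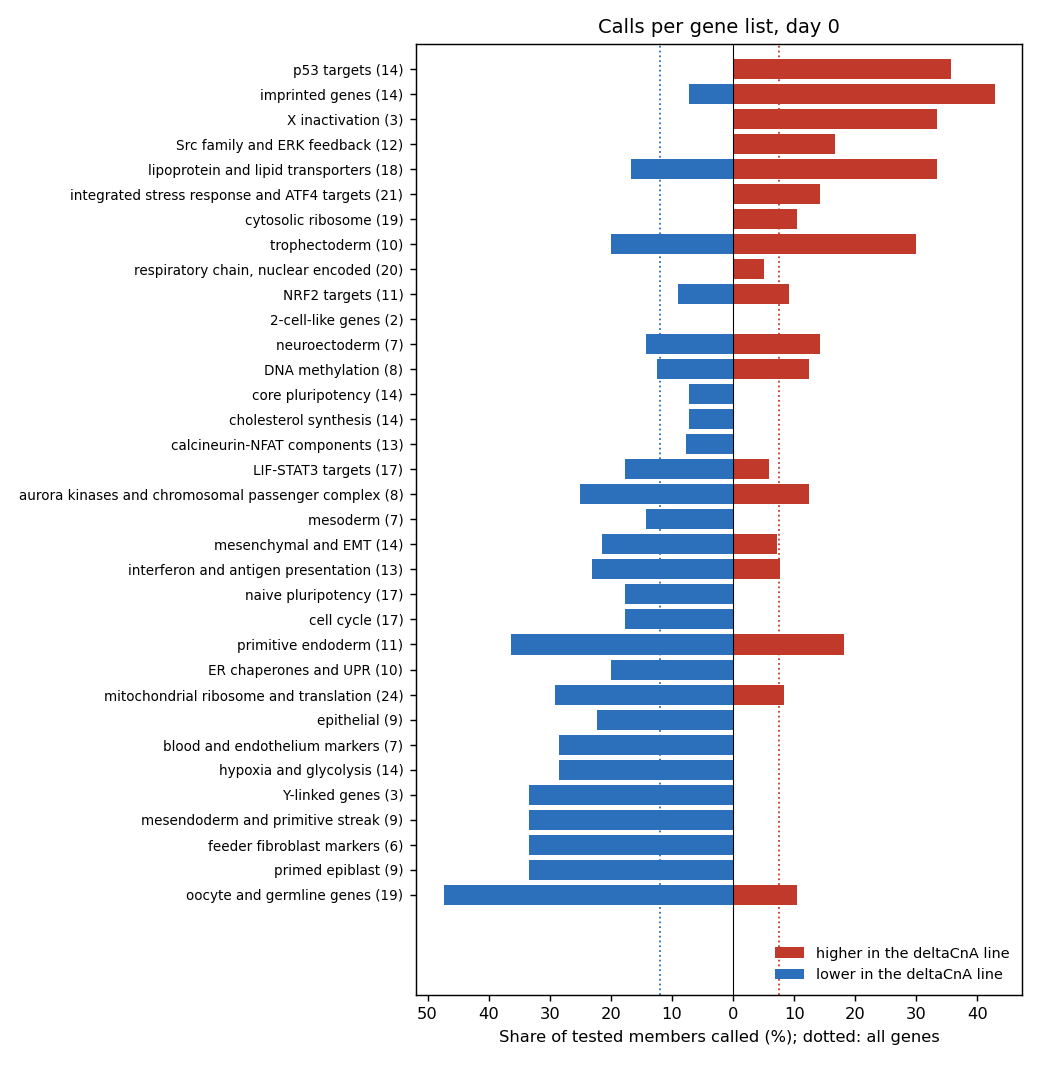
Share of the tested members of each gene list called at day 0 (x axis, percent; higher in the deltaCnA line to the right in red, lower to the left in blue), with the number of tested members in brackets and dotted lines at the shares of all 10052 genes (7.52% and 11.9%). The p53 targets and imprinted genes lie farthest to the right, and the oocyte and germline genes reach 47.4% on the left.

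The difference between the lines was then read from 4 arrays that the day 0 comparison did not use, the deltaCnA line at day 1 of induction against CGR8 cells with CsA at day 0. That comparison differs also in Tc and CsA, and it called 2584 genes (25.7%), 1274 higher (12.7%) and 1310 lower (13%). Of the 756 genes higher at day 0, 165 were higher there (21.8% of the day 0 list and 12.95% of the other) and 72 were lower. Of the 1199 genes lower at day 0, 388 were lower there (32.4% and 29.6%) and 101 were higher. The remaining 519 and 710 genes were not called in it.

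The widest day 0 differences were of both kinds. Ezh2 (4.01) and Fgfr2 (2.95) were called the same way on the separate arrays, on the log2 scale. So were 4 genes that lacked detection on 1 or both day 1 arrays of the line, namely Zfp472 (at least 17.4-fold lower), Smc1b (at least 7.31-fold), Meis2 (at least 5.08-fold) and Eif2s3y (at least 4.66-fold). S100a6 (0.00) and Patl2 (-0.31) were not called there. Ccno (2.17), Abca14 (1.16), Ddit3 (-2.09) and Vldlr (at least 4.7-fold lower) were called the opposite way. With median scaling, 241 genes were called the same way in both comparisons and 55 the opposite way, against 553 and 173 here.

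**Figure D5:**
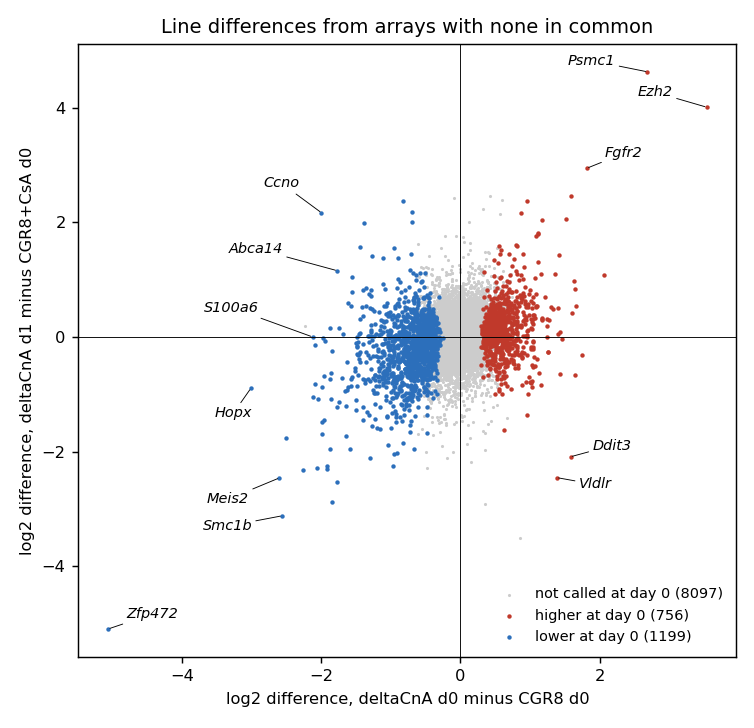
Log2 difference of 10052 genes between the lines at day 0 (x axis) and between the deltaCnA line at day 1 and CGR8 cells with CsA at day 0 (y axis), which share no array; colours give the day 0 call. Zfp472, Smc1b and Meis2 lie low and Ezh2 and Fgfr2 high on both axes, while Ddit3, Vldlr, Ccno and Abca14 lie on opposite sides of 0.

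The differences were spread over the genome. The median log2 difference lay between -0.05 and 0.02 on every autosome and the X chromosome, so no whole chromosome was shifted. Runs of at least 4 neighbouring tested genes called the same way occurred 3 times, all lower in the line. Of all tested genes 11.9% were called lower and 7.52% higher, with 15.4% lower on chromosome 9 and 14.4% on the X chromosome. How many runs these shares alone would give was not tested, so the runs are a description of positions. On chromosome 9 they were Esam, Vsig2, Nrgn, Siae and Tbrg1, and Mthfs, Tmed3, Tbc1d2b and Zic4, and on the X chromosome Fmr1nb, Gm6812, Tmem185a and Cd99l2. Vsig2, a membrane protein gene of the immunoglobulin family, read 6.79 and 7.45 against 6.01 and 5.59 (-1.32 ± 0.22, adjusted p = 0.000142). Esam, an adhesion molecule of endothelium, differed by -1.39 ± 0.33, and its call ended without replicate 2 of CGR8 (adjusted p = 0.104) or of the line (0.0567). Tbrg1 (-0.34 ± 0.11) lost its call without any single array of the 4 (0.0509 to 0.164), and its other kept probes differed by -0.48 and 0.29. Gene order was taken from the RefSeq table on GRCm38.p6.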

How the data were processed

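Per the labels' protocols, Trizol RNA was amplified to biotinylated cRNA (Ambion MessageAmp) and read on Illumina Sentrix Mouse-6 v1.1 BeadChips. The probe intensity values and their detection p-values were deposited by the authors without normalization between arrays, per the file headers. A series matrix, deposited by the authors as linear intensity, served as an alternative. The scanner software is not given in the sources used here. Groups, days and replicate numbers came from the sample titles.

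Background was modelled with normexp from the detection p-values (limma 3.58.1, R 4.3.3, offset 16). Quantile normalization between arrays and log2 followed. Of 46632 probes, 29976 had 1 gene symbol, 10 several and 16646 none, and 4844 of the 19297 probes kept were unnamed. The brightest kept probe by its mean over the 4 arrays stood for its gene. Of 655 called genes with another kept probe, that probe was called the same way in 234 and the opposite way in 10. A linear model of 9 group means over 18 arrays (9 residual degrees of freedom, eBayes with an intensity trend) was fitted, and p-values were adjusted by Benjamini-Hochberg over 10052 genes. "Called" means an adjusted p under 0.05. Errors are standard errors. For a bound, the brighter group's mean was set against the mean, over the dim arrays, of the lowest signal detected there, or of the probe's signal if that was higher. The fit was tested on simulated data.

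Named genes were the 15 largest rises and falls among called genes, the called members of 34 gene lists (the 4 largest in each direction for most), and 9 fixed genes; 24 genes were added after their values were seen (those of Polycomb and germline pathways outside the lists, neighbours, X-linked and Y-linked genes, Xist, Esrrb, Tdgf1, Utf1, Socs3, Stat3 and Myc). Members given in passing, with a log2 difference alone or by name only, also lie outside the rule. The members and lists were chosen with earlier results of these data known, so list counts are descriptions without a test. Same-numbered replicates did not deviate together (r = -0.05), so no block was used. Levels are per probe and are not compared between genes.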

Additional observations from a re-analysis of the deposited data

How the results depend on the processing

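The day 0 difference was recomputed under 17 other settings. Called genes numbered 838 with median scaling (307 higher, 531 lower), and 847 to 1616 without single arrays (287 to 600 higher, 560 to 1016 lower). In the other settings they numbered 1576 (no detection filter) to 2199. Most probes are undetected, so the median of an array lies among them. Of 132 named genes called, 73 kept the call in every setting they had a value in. In the comparison with no shared arrays, median scaling gave 1664 called genes, 241 the same way and 55 the opposite way, and no detection filter gave 109 the opposite way. Genes with all deltaCnA arrays apart numbered 203 above and 76 below with median scaling. The cause of these changes was not tested.

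Signs turned only for small differences: Fdps with the mean of its probes (0.15), and Socs3 with median scaling (0.015). Without single arrays, 6 genes gave both signs, in log2 ranges of -0.096 to 0.15 for Ppp3cb, -0.073 to 0.10 for Eed, -0.058 to 0.41 for Uty, -0.13 to 0.60 for Zfy2, -0.52 to 0.20 for Tdgf1 and -0.17 to 0.057 for Socs3.

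With the replicate number as a block, 2199 genes were called (864 higher, 1335 lower), and Ppp3ca (adjusted p = 0.0453), Pou5f1 (0.0448), Stat3 (0.0362) and Myc (0.0165) passed the threshold. Differences between replicates 1 and 2 correlated at -0.05 for the 2 day 0 groups and at -0.22 to 0.04 between CGR8 and deltaCnA groups, so across the lines the samples share only a number. Within a line they correlated at 0.059 to 0.37 (CGR8) and 0.13 to 0.21 (deltaCnA). A block for the chip was not run, because no source used here gives the chip of an array. Requiring detection on all 4 arrays, a setting added after seeing the data, gave 1701 calls.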

Other observations

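Of the 85 genes set above CGR8 on every array under both scalings, 30 were not called at day 0. Members described nowhere above include the Gq family gene Gna14 (log2 difference 1.41 at day 0), the neuropilin gene Nrp2 (0.92), the Argonaute gene Ago4 (0.90), the Notch target Hey1 (0.90), the histone variant gene Macroh2a1 (0.71) and the transcription elongation inhibitors Hexim1 (0.53) and Hexim2 (0.61). Among the 74 genes below were the initiator caspase gene Casp8 (-1.65), the oxysterol hydroxylase gene Cyp7b1 (-1.40), the stress kinase gene Map3k5 (-1.33), securin (Pttg1, -1.21), the DNA repair gene Rad50 (-0.85), the topoisomerase gene Top2b (-0.73) and the tumour suppressor gene Cdkn2a (-0.50). These genes were chosen after their values were seen, and whether they belong to the line, the induction course or the arrays cannot be told apart.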
